A study of Mus musculus with 12 samples.

Results

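Glycolysis and lactate handling were followed in muscle through 10 named genes: the glycolytic enzymes *Pfkm*, *Gpi1*, *Pgam2*, *Eno3* and *Pkm*, the glycerol 3-phosphate dehydrogenase *Gpd1*, the lactate dehydrogenase subunits *Ldha* and *Ldhb*, and the monocarboxylate transporters *Slc16a1* and *Slc16a3*. The genes were chosen by name, with earlier results of these data known. Each was read from its brightest probe set with 1 gene symbol. Such a probe set was found for 9 of the 10, among 19938 genes measured in this way. *Gpi1* was not analysed here, since no probe set carries its symbol alone in the annotation used.

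Gene expression was measured on 12 mouse Gene 1.0 ST arrays, 3 for each of 4 groups, from diaphragm and gastrocnemius muscle of male C57Bl6 mice aged 10 to 12 weeks. The KO mice carry a deletion of *Cox6a2* in the whole body, and the WT mice carry the gene. Per the methods, controls were C57BL/6J mice from a supplier, matched for age and sex, and no source used here says that they were littermates. Each array is labelled as a biological replicate. Values are log2 signals, so that a difference of 1 is a doubling, and 3 arrays per group limit the precision. A gene was called where its adjusted p was under 0.05 (limma, Benjamini-Hochberg over the 19938 genes). The marker and pathway lists were also chosen with earlier results known. For the named genes and these lists, p-values and counts are thus a description and no independent test.

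As background, glycolysis splits glucose into pyruvate, and lactate dehydrogenase interconverts pyruvate and lactate. Fast glycolytic fibers are known for a form of the enzyme rich in the A subunit and for the transporter MCT4 (*Slc16a3*), which exports lactate. Oxidative fibers and heart are known for the B subunit and for MCT1 (*Slc16a1*), through which lactate is taken up for oxidation.

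The deleted gene was checked first. *Cox6a2* had a mean log2 signal of 11.89 and 11.74 on the arrays with the labels WT diaphragm and WT gastrocnemius, and of 6.89 and 6.93 in the KO muscles of the same order. The tissue label was checked against position and cell type markers, and the WT diaphragm arrays went against theirs on the hindlimb and mesothelial lists. The mean log2 signal of 10 hindlimb position genes was 6.68 to 6.87 there, 6.70 to 6.80 in gastrocnemius of both genotypes and 5.39 to 5.57 in KO diaphragm. Of these 10, 8 were called lower in KO diaphragm than on the WT diaphragm-labelled arrays, beside 11.2% of all genes. *Pitx1*, also on this list, had means of 5.83 in KO diaphragm and 5.84 in KO gastrocnemius. The mean of 8 markers of the mesothelium, which covers the diaphragm, was 5.08 to 5.19 on the WT diaphragm-labelled arrays, 4.99 to 5.31 in gastrocnemius and 7.72 to 8.55 in KO diaphragm. The mean of 6 cervical position genes was 6.24 to 6.30 on the WT diaphragm-labelled arrays, above the 6.04 to 6.21 of gastrocnemius, and 6.67 to 6.84 in KO diaphragm. Of these 6, 4 were called higher in KO diaphragm than on the WT diaphragm-labelled arrays, beside 16.3% of all genes, and 2 had lower means. Over all genes, the WT diaphragm-labelled arrays correlated with WT gastrocnemius at 0.989 to 0.992 and with KO diaphragm at 0.963 to 0.975. In every difference given below between KO diaphragm and these arrays, genotype and muscle cannot be told apart. The comparison of KO diaphragm with KO gastrocnemius takes its difference from KO arrays only and is given beside it. Its SE and adjusted p rest on the spread within the groups of all 12 arrays, the WT arrays included. These comparisons share the KO diaphragm arrays and are not independent.

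The lactate genes moved in opposite directions, and the exporter had the widest range of all members. *Slc16a3* had log2 signals of 10.95, 10.82 and 10.97 on the WT diaphragm-labelled arrays and 6.38, 6.82 and 6.31 in KO diaphragm. In gastrocnemius it was at 10.68, 11.09 and 10.85 in WT and at 10.68, 10.61 and 10.68 in KO. KO diaphragm stood alone at the low end, and the other 9 arrays lay within 10.61 to 11.09. *Slc16a3* was 21.2-fold lower in KO diaphragm than on the WT diaphragm-labelled arrays (log2 difference -4.40, SE 0.13, adjusted p = 4.1e-11), with a 95% confidence interval of 17.4 to 25.7. No detection call was used here, so whether its probes were above background in KO diaphragm is not known, and the folds of *Slc16a3* hold for the signal. The deleted *Cox6a2* still read 6.71 to 7.18 in the KO muscles. Against KO gastrocnemius it was 17.8-fold lower (log2 difference -4.15, SE 0.13, adjusted p = 7.6e-11). In whole muscle, fewer fibers of a type and less RNA per fiber cannot be told apart. Of 5 fast fiber markers, all were also called lower in KO diaphragm, beside 11.2% of all genes in each of these comparisons. Their mean log2 signal was 9.54 to 10.06 there and 12.97 to 13.08 elsewhere. Their part in this and the following differences was not tested.

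*Slc16a1*, the transporter of uptake, had log2 signals of 9.37, 9.01 and 9.21 on the WT diaphragm-labelled arrays and 10.43, 10.24 and 10.31 in KO diaphragm. It was at 8.71, 8.80 and 8.95 in WT gastrocnemius and at 8.68, 8.74 and 8.91 in KO gastrocnemius. All KO diaphragm arrays were above all others, and the WT diaphragm-labelled arrays lay between them and gastrocnemius. *Slc16a1* was 2.19-fold higher in KO diaphragm than on the WT diaphragm-labelled arrays (SE 0.11 on the log2 scale, adjusted p = 4.8e-06) and 2.92-fold higher than in KO gastrocnemius (SE 0.11, adjusted p = 2.4e-07).

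*Ldha*, the subunit of the muscle form, had log2 signals of 13.07, 12.98 and 12.95 on the WT diaphragm-labelled arrays and 11.98, 11.86 and 11.86 in KO diaphragm. It was at 13.18, 13.00 and 13.02 in WT gastrocnemius and at 13.06, 13.02 and 13.10 in KO gastrocnemius. KO diaphragm was again the low group, while the other 3 groups overlapped. The difference was 2.15-fold against the WT diaphragm-labelled arrays (log2 difference -1.10, SE 0.085, adjusted p = 5.0e-07) and 2.24-fold against KO gastrocnemius (log2 difference -1.16, SE 0.085, adjusted p = 2.9e-07).

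*Ldhb*, the subunit of the heart form, had log2 signals of 9.63, 8.97 and 10.01 on the WT diaphragm-labelled arrays and 11.68, 11.50 and 11.63 in KO diaphragm. It was at 9.44, 9.29 and 9.25 in WT gastrocnemius and at 9.79, 10.04 and 9.47 in KO gastrocnemius. KO diaphragm was the high group, and the WT diaphragm-labelled arrays were the most scattered of the 4 groups (SD 0.52, n = 3). *Ldhb* was 4.19-fold higher in KO diaphragm than on these arrays (log2 difference 2.07, SE 0.20, adjusted p = 4.5e-06) and 3.57-fold higher than in KO gastrocnemius (log2 difference 1.84, SE 0.20, adjusted p = 1.1e-05). A further probe set annotated to *Ldhb* gave 9.26, 8.46 and 9.51 on the WT diaphragm-labelled arrays and 11.23, 11.10 and 11.24 in KO diaphragm, which is the same direction.

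**Figure D1:**
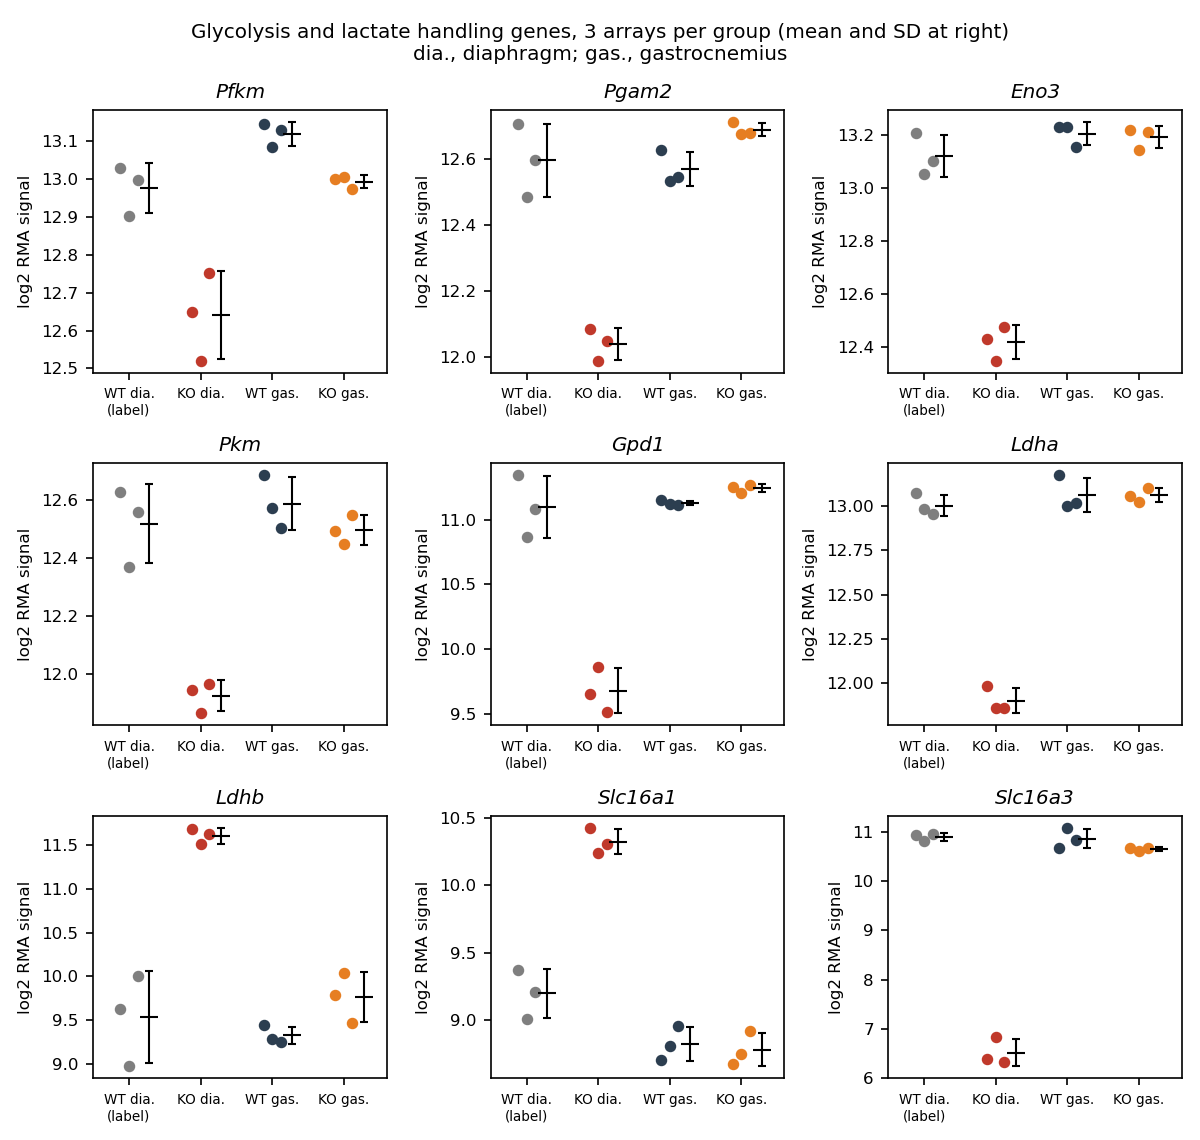
Log2 RMA signal (vertical axes, each panel with its own range) of the 9 measured members on the 3 arrays of each group (points), with the group mean and SD in black. KO diaphragm stands apart from the other 3 groups in every panel, below them for 7 genes and above them for *Ldhb* and *Slc16a1*.

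The stretch of 250 bases before 1 listed transcript start of each of these 4 genes is printed because the genes moved in opposite directions between the same arrays. The sequences are from RefSeq (GRCm38.p6), read 5′ to 3′ on the gene's strand, and capitals mark ACGTG or GCGTG, core letters of the hypoxia response element, on either strand. *Slc16a3* lies at chr11:120948817-120949066 (plus strand), *Ldha* at chr7:46845554-46845803 (plus strand, 1 of 2 listed starts), *Slc16a1* at chr3:104638414-104638663 (plus strand) and *Ldhb* at chr6:142507958-142508207 (minus strand). The windows of *Slc16a3* and *Ldha* lie inside the annotated span of the gene, downstream of its outermost start, which is at position 120948484 for *Slc16a3* and 46842274 for *Ldha*.
Slc16a3: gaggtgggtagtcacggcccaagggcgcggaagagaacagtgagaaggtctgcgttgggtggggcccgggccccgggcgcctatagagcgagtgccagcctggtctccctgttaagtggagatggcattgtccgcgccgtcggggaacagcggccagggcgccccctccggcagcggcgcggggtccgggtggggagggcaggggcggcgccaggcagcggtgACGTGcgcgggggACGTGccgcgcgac
Ldha: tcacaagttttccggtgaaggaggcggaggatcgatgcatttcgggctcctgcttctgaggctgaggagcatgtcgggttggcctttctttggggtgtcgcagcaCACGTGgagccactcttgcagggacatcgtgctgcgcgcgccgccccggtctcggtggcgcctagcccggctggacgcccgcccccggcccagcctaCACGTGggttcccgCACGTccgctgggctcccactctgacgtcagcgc
Slc16a1: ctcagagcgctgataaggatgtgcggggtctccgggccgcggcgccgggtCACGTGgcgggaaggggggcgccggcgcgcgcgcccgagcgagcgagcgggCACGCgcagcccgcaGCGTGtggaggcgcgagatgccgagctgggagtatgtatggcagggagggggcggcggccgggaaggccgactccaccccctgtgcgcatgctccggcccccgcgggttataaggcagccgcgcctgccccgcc
Ldhb: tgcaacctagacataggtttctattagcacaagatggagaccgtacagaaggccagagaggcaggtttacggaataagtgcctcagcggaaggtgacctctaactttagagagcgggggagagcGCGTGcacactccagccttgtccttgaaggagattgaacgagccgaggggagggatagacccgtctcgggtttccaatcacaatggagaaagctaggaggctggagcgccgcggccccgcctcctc
The *Slc16a3* window held 2 marked runs, *Ldha* 3, *Slc16a1* 3 and *Ldhb* 1, so that both the genes lower and the genes higher in KO diaphragm had them. Either core was in 38.6% of all 32851 RefSeq windows of this length and in 10 of the 14 windows of the members (9 of the 10 genes had a window, and *Gpd1* had none). The *Pfkm* windows at chr15:98108221-98108470 and chr15:98108306-98108555 overlap and share a match. Both cores hold a CG, and the shares were not matched for G and C content. Its median was 52.4% over all windows, beside 73.6% for the printed window of *Slc16a3*, 67.2% for *Ldha*, 76.4% for *Slc16a1* and 56.4% for *Ldhb*. The outer letters of MEF2 sites, with any 4 bases between them, were in 3.2% of all windows and, among the members, in that of *Ldhb* only. In neither of its 2 matches were the bases between A or T only, so neither is read as a MEF2 site. The E-box CANNTG, which also matches CACGTG and so overlaps the marked runs, was in 66.2% of all windows and in 10 of the 14. Both strands were searched, CACGTG holds the core ACGTG on each strand and is marked as 1 run, and a match is a description of the letters.

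Because the 4 genes have different probes, their levels cannot be set against each other, but the change of a difference within an array can be read. The log2 signal of *Slc16a3* minus that of *Slc16a1* was 1.58, 1.81 and 1.76 on the WT diaphragm-labelled arrays and -4.04, -3.42 and -4.00 in KO diaphragm. In gastrocnemius the same difference was 1.98, 2.28 and 1.89 in WT and 2.01, 1.87 and 1.77 in KO. The balance of export over uptake transporter signal was thus 46.3-fold lower in KO diaphragm than on the WT diaphragm-labelled arrays and 52.0-fold lower than in KO gastrocnemius, with the same limit on the low *Slc16a3* signal. Between the genotypes in gastrocnemius the difference moved by -0.17 on the log2 scale, and the arrays overlapped. Without WT gastrocnemius replicate 2 it moved by -0.054, and without WT gastrocnemius replicate 3 by -0.25.

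*Ldha* minus *Ldhb* was 3.44, 4.01 and 2.95 on the WT diaphragm-labelled arrays and 0.31, 0.35 and 0.23 in KO diaphragm. It was 3.73, 3.71 and 3.77 in WT gastrocnemius and 3.27, 2.99 and 3.63 in KO gastrocnemius. The balance of A over B subunit mRNA was 8.99-fold lower in KO diaphragm than on the WT diaphragm-labelled arrays and 7.99-fold lower than in KO gastrocnemius. In gastrocnemius it was lower in KO by 1.36-fold, with all 3 KO arrays below all 3 WT arrays, and the log2 change of -0.44 was -0.29 without KO gastrocnemius replicate 2. No test was made on these differences. The pairs, like the members, were chosen with results of these data known.

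**Figure D2:**
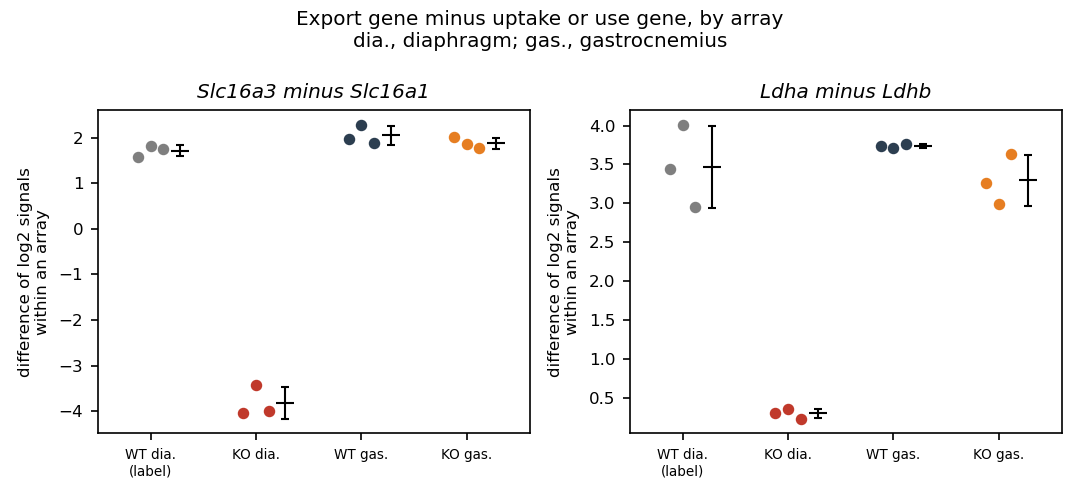
Difference of log2 signals within an array (vertical axes) for *Slc16a3* minus *Slc16a1* and *Ldha* minus *Ldhb*, for the 3 arrays of each group (points) with mean and SD in black. KO diaphragm lies between -4.04 and -3.42 for the transporters, while the other 9 arrays lie between 1.58 and 2.28.

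The 4 measured glycolytic enzymes among the members were lower in KO diaphragm, by less than *Ldha* and *Slc16a3*. *Pfkm*, the muscle form of phosphofructokinase, the committed step of glycolysis, had log2 signals of 13.03, 12.90 and 13.00 on the WT diaphragm-labelled arrays and 12.65, 12.52 and 12.75 in KO diaphragm. It was at 13.14, 13.08 and 13.13 in WT gastrocnemius and at 13.00, 13.00 and 12.97 in KO gastrocnemius. KO diaphragm did not overlap any other group, and its distance was the smallest of the members. The log2 difference was -0.34 (SE 0.085, adjusted p = 0.0084) against the WT diaphragm-labelled arrays and -0.35 (SE 0.085, adjusted p = 0.0058) against KO gastrocnemius. After quantile normalization these differences were -0.26 and -0.22 and were no longer called (adjusted p = 0.057 and 0.11). The phosphofructokinase genes *Pfkl* and *Pfkp*, which are not members, went the other way against the WT diaphragm-labelled arrays. Their log2 differences were 0.93 (adjusted p = 5.6e-04) and 0.96 (adjusted p = 2.1e-04), with means of 7.51 and 7.49 in KO diaphragm. Against KO gastrocnemius they were 0.91 and 1.06.

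*Pgam2*, the muscle phosphoglycerate mutase, was at 12.71, 12.48 and 12.59 on the WT diaphragm-labelled arrays and at 12.08, 11.99 and 12.05 in KO diaphragm. Its log2 signals were 12.63, 12.53 and 12.54 in WT gastrocnemius and 12.71, 12.67 and 12.68 in KO gastrocnemius. The KO diaphragm arrays were the 3 lowest of the 12. *Pgam2* was 1.47-fold lower than on the WT diaphragm-labelled arrays (log2 SE 0.084, adjusted p = 2.0e-04) and 1.57-fold lower than in KO gastrocnemius (log2 SE 0.084, adjusted p = 4.8e-05).

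*Eno3*, the muscle enolase, was at 13.21, 13.05 and 13.10 on the WT diaphragm-labelled arrays and at 12.43, 12.35 and 12.48 in KO diaphragm. Its log2 signals were 13.23, 13.23 and 13.16 in WT gastrocnemius and 13.22, 13.15 and 13.21 in KO gastrocnemius. The 9 arrays outside KO diaphragm spanned 13.05 to 13.23 only. *Eno3* was 1.63-fold lower than on the WT diaphragm-labelled arrays (log2 SE 0.082, adjusted p = 2.1e-05) and 1.71-fold lower than in KO gastrocnemius (log2 SE 0.082, adjusted p = 8.3e-06).

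*Pkm*, which encodes the pyruvate kinase of muscle, was at 12.63, 12.37 and 12.56 on the WT diaphragm-labelled arrays and at 11.94, 11.86 and 11.97 in KO diaphragm. Its log2 signals were 12.68, 12.57 and 12.50 in WT gastrocnemius and 12.49, 12.45 and 12.55 in KO gastrocnemius. KO diaphragm was below all others, and the other 3 groups overlapped. *Pkm* was 1.51-fold lower than on the WT diaphragm-labelled arrays (log2 SE 0.092, adjusted p = 2.4e-04) and 1.49-fold lower than in KO gastrocnemius (log2 SE 0.092, adjusted p = 3.0e-04). The value sums the spliced forms of *Pkm*, which were not separated here, and a further probe set annotated to it was also lower in KO diaphragm (11.44, 11.21 and 11.35) than on the WT diaphragm-labelled arrays (11.83, 11.69 and 11.76). Transcribed copies of glycolytic genes may share probes with the genes named here, and their part was not tested.

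*Gpd1*, the cytosolic enzyme that uses NADH from glycolysis to make glycerol 3-phosphate, had a larger difference than the 4 glycolytic enzymes. Its log2 signals were 11.34, 10.87 and 11.08 on the WT diaphragm-labelled arrays and 9.65, 9.86 and 9.51 in KO diaphragm. In gastrocnemius they were 11.15, 11.12 and 11.11 in WT and 11.25, 11.21 and 11.27 in KO. KO diaphragm was the low group, and no other array reached it. *Gpd1* was 2.68-fold lower than on the WT diaphragm-labelled arrays (log2 difference -1.42, SE 0.12, adjusted p = 9.3e-07) and 2.96-fold lower than in KO gastrocnemius (log2 difference -1.57, SE 0.12, adjusted p = 3.3e-07).

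Counted together, 7 of the 9 measured members were lower and 2 were higher in KO diaphragm when set against the WT diaphragm-labelled arrays, all 9 with arrays that did not overlap. In this comparison 27.6% of all genes were called (11.2% lower and 16.3% higher) and 43.1% had arrays that did not overlap (22.2% below and 20.9% above). The median log2 difference of the members was -0.59, beside -0.04 over all genes. Against KO gastrocnemius the counts were again 7 lower and 2 higher, all 9 without overlap, beside 28.9% of all genes called (11.2% lower and 17.7% higher) and 44.8% without overlap (19% below and 25.7% above). The member median there was -0.65, beside 0.02 over all genes. The counts of the comparison within KO mice were the same in a fit without the WT diaphragm-labelled arrays.

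In gastrocnemius, the muscle whose arrays carried the position markers of their label in both genotypes, none of the 9 members was called between KO and WT (limma, beside 0.592% of all genes, 0.406% higher and 0.186% lower), and 1, *Ldhb*, had an unadjusted p under 0.05, beside 16.4% of all genes. The methods' t-test called none after adjustment and 3 before it (*Pgam2* and *Gpd1* higher, *Pfkm* lower), beside 13.6% of all genes. *Ldhb* was at 9.77 in KO and at 9.33 in WT, a log2 difference of 0.44 (95% confidence interval 0.01 to 0.87, adjusted p = 0.30), with the KO arrays above the WT arrays. *Slc16a3* had a log2 difference of -0.21 (95% confidence interval -0.49 to 0.07) and overlapping arrays. *Ldha* had -0.00 (-0.19 to 0.18) and *Slc16a1* -0.04 (-0.28 to 0.19), so that changes of the size seen in KO diaphragm lay outside these intervals. The arrays of 4 members did not overlap, *Ldhb*, *Pgam2* (0.12) and *Gpd1* (0.11) above and *Pfkm* (-0.13) below, beside 23.2% of all genes without overlap (12.3% above and 11% below). The interval of *Eno3* was -0.19 to 0.16 and that of *Pkm* -0.29 to 0.11.

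The KO minus WT difference itself was compared between the muscle labels (the interaction). It was lower under the diaphragm label for 6 members and higher for *Ldhb* and *Slc16a1*, beside 14.8% of all genes called (6.07% lower and 8.76% higher). The value was -4.19 (SE 0.18) for *Slc16a3*, 1.63 (SE 0.28) for *Ldhb* and 1.17 (SE 0.16) for *Slc16a1*. *Pfkm* was not called (-0.21, 95% confidence interval -0.47 to 0.05, adjusted p = 0.29). This comparison rests on the WT diaphragm-labelled arrays as well.

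Between the WT labels themselves none of the 9 members was called (limma, beside 0.461% of all genes, 0.296% higher and 0.166% lower), and 1 had an unadjusted p under 0.05, beside 12.9% of all genes. That member was *Slc16a1*, at 9.20 on the WT diaphragm-labelled arrays and 8.82 in WT gastrocnemius (log2 difference 0.38, 95% confidence interval 0.14 to 0.61, adjusted p = 0.16), with arrays that did not overlap. *Pfkm* was the other member without overlap (-0.14), beside 16.8% of all genes (5.91% below and 10.9% above). *Slc16a3* differed by 0.04 (-0.24 to 0.32), *Ldha* by -0.06 (-0.24 to 0.12) and *Ldhb* by 0.21 (-0.22 to 0.64). By their means, *Slc16a3* was ordered from the WT diaphragm-labelled arrays through WT and KO gastrocnemius to KO diaphragm, and only the last step was past the spread between arrays.

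**Figure D3:**
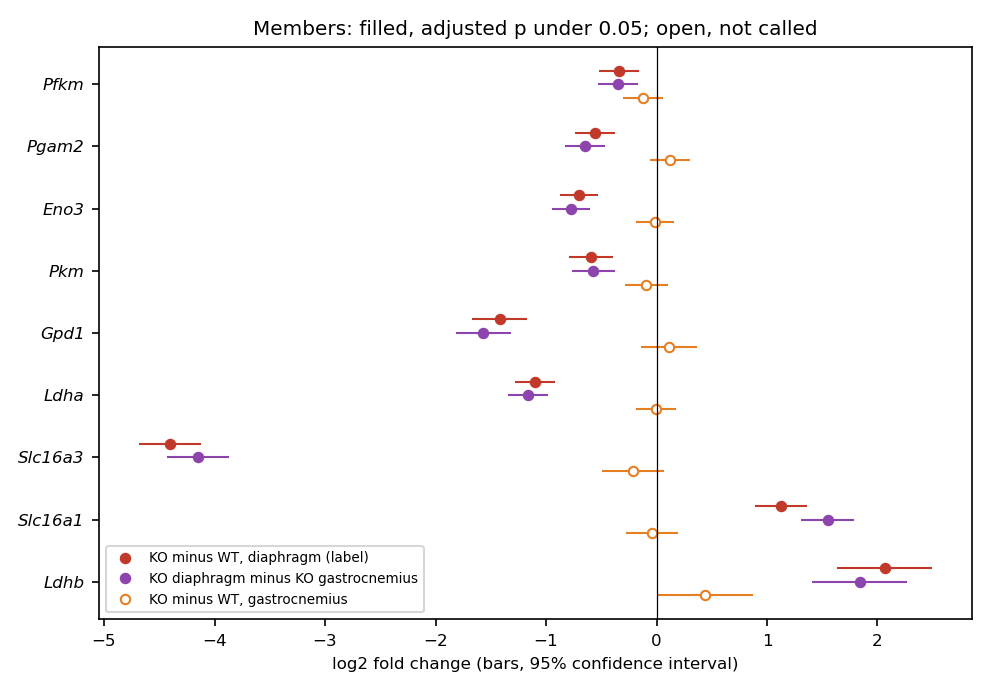
Log2 fold change (horizontal axis) of the 9 measured members in 3 comparisons, with 95% confidence intervals as bars, filled points for genes called at an adjusted p under 0.05 and open points for the rest. The 2 comparisons that hold KO diaphragm share its arrays and run from -4.40 for *Slc16a3* to 2.07 for *Ldhb*, while all points of gastrocnemius are open.

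Fiber type markers moved with these differences. The mean log2 signal of 5 fast fiber markers, among them *Myh4*, was 12.97 to 13.02 on the WT diaphragm-labelled arrays, 9.54 to 10.06 in KO diaphragm and 13.03 to 13.08 in gastrocnemius of both genotypes, and all 5 were called lower in KO diaphragm against the WT diaphragm-labelled arrays and against KO gastrocnemius. The mean of 8 slow fiber markers was 9.41 to 10.16, 11.25 to 11.46 and 9.59 to 10.40 in the same order, with 8 called higher in KO diaphragm against the WT diaphragm-labelled arrays and 7 against KO gastrocnemius. On the WT diaphragm-labelled arrays, the slow fiber mean was 9.78, 9.41 and 10.16, and *Ldhb* was lowest and highest on the same arrays. In WT gastrocnemius the slow fiber mean was 9.59, 10.40 and 10.19, and *Ldhb* did not follow it there. It did not in KO gastrocnemius either, where the slow fiber mean was 9.85, 9.99 and 10.36 and *Ldhb* was lowest on the last array. In KO diaphragm the slow fiber mean was 11.33, 11.25 and 11.46, and *Ldhb* was lowest, but not highest, on the same array. Markers of other cells were also called higher in KO diaphragm against the WT diaphragm-labelled arrays: 8 of 8 of mesothelium, 5 of 6 of adipocytes, 9 of 10 of macrophages and 1 of 3 of red cells. Against KO gastrocnemius the counts were 8, 5, 10 and 2. Of all genes, 16.3% were called higher and 11.2% lower against the WT diaphragm-labelled arrays, and 17.7% and 11.2% against KO gastrocnemius. Of 5 smooth muscle markers, 4 were lower and 1 was higher against the WT diaphragm-labelled arrays, and 0 were lower and 1 was higher against KO gastrocnemius. On the WT diaphragm-labelled arrays 2 of these 5 were called higher than in WT gastrocnemius, beside 0.296% of all genes. The macrophage mean was 6.62 to 7.15 on the WT diaphragm-labelled arrays and 7.87 to 8.39 in KO diaphragm, and the adipocyte mean was 6.42 to 6.69 and 7.15 to 8.82. The part of these markers in the members' differences was not tested. In gastrocnemius no marker of these lists was called between KO and WT, beside 0.592% of all genes. All 6 adipocyte, all 10 macrophage and 7 of 8 mesothelial markers had lower means in KO there, beside 53.5% of all genes.

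The genes whose centred log2 values were most like those of the lactate genes over the 12 arrays are given as a description, by the root mean square difference. For *Slc16a3* they were *Myh4* (0.22), *Smox* (0.26), *Hoxc10* (0.30), *Actn3* (0.34) and *Mettl21c* (0.35). *Myh4* and *Actn3* are on the fast fiber list, and *Hoxc10* is on the hindlimb list. *Hoxc10* had mean log2 signals of 4.18 in KO diaphragm, 8.44 and 8.53 in gastrocnemius of WT and KO, and 8.68 on the WT diaphragm-labelled arrays. For *Ldhb* they were *Plin3* (0.20), *Smtnl1* (0.20), *Fxyd6* (0.23), *Nceh1* (0.25) and *Idh2* (0.26), and for *Ldha* *Dusp13* (0.078), *Anapc5* (0.097), *Ston2* (0.098), *Tirap* (0.10) and *Lrrc20* (0.10). For *Slc16a1* they were *Chst4* (0.14), *Tm4sf1* (0.17), *Plod2* (0.17), *Akap1* (0.17) and *Tmem171* (0.17). Among the members, *Eno3* and *Pkm* were the closest pair (0.084), followed by *Pgam2* and *Pkm* (0.084), and *Ldhb* and *Slc16a3* were the farthest apart (2.78).

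Other genes of the pathway were taken from 3 lists of 39 genes, of which 35 were measured. In KO diaphragm against the WT diaphragm-labelled arrays, 16 of the 35 were called higher and 11 lower, beside 16.3% and 11.2% of all genes. Of 16 other glycolysis genes, 4 were higher and 8 were lower, beside the same shares. The largest differences were in *Pfkfb3* (log2 difference -2.49) and *Pfkfb4* (-2.05), which set the level of fructose 2,6-bisphosphate, the activator of phosphofructokinase, and in *Fbp2* (-1.57), the muscle fructose bisphosphatase. *Pfkfb3* had log2 signals of 10.18, 9.56 and 10.28 on the WT diaphragm-labelled arrays, 7.27, 7.87 and 7.40 in KO diaphragm, 10.22, 10.90 and 10.69 in WT gastrocnemius and 11.04, 10.53 and 11.05 in KO gastrocnemius. It was low in KO diaphragm only. In the same family *Pfkfb2*, known as the heart form, was the higher one in KO diaphragm when set against KO gastrocnemius (1.77, adjusted p = 1.2e-05), where *Pfkfb3* was lower by 3.36 on the log2 scale (adjusted p = 9.5e-08).

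Of 10 other genes on the lactate and pyruvate list, 5 were higher and 2 were lower in KO diaphragm, against the WT diaphragm-labelled arrays. Of all genes, 16.3% were called higher and 11.2% lower. The list also holds *Hif1a*, which encodes a transcription factor and is 1 of the 5 higher genes (log2 difference 0.43, adjusted p = 0.0017). *Slc16a7*, which encodes the monocarboxylate transporter MCT2, was at 4.97, 4.96 and 5.04 on the WT diaphragm-labelled arrays, 7.90, 7.52 and 8.03 in KO diaphragm, 5.25, 4.64 and 4.55 in WT gastrocnemius and 5.03, 5.01 and 4.86 in KO gastrocnemius. All 3 KO diaphragm arrays were above the other 9 (log2 difference 2.83, SE 0.16, adjusted p = 2.9e-08), and whether the signals of those 9 were above background is not known. *Gpt2* and *Gpt*, which interconvert pyruvate and alanine in mitochondria and cytosol, went opposite ways, with log2 differences of -2.39 (adjusted p = 4.5e-08) and 0.96 (adjusted p = 8.2e-05). *Mpc1*, a subunit of the mitochondrial pyruvate carrier, depended on the comparison group. It was higher in KO diaphragm than on the WT diaphragm-labelled arrays (0.41, adjusted p = 0.011) and lower than in KO gastrocnemius (-0.36, adjusted p = 0.019).

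The NADH shuttles carry reducing equivalents from the cytosol into mitochondria. Of 9 genes of these shuttles, 7 were higher and 1 was lower in KO diaphragm, against the WT diaphragm-labelled arrays. The shares of all genes called there were 16.3% higher and 11.2% lower. The lower gene was *Gpd2*, the mitochondrial partner of *Gpd1* in the glycerol phosphate shuttle, at 10.66, 10.71 and 10.53 on the WT diaphragm-labelled arrays and 8.40, 8.38 and 7.97 in KO diaphragm. It was at 10.68, 10.48 and 10.90 in WT gastrocnemius and at 10.82, 10.73 and 10.84 in KO gastrocnemius. *Gpd2* thus had the same low group as *Gpd1* (log2 difference -2.38, SE 0.13, adjusted p = 1.3e-08). The malate-aspartate shuttle genes *Slc25a13*, a carrier of aspartate and glutamate, and *Mdh1*, the cytosolic malate dehydrogenase, were higher, by 1.61 (adjusted p = 1.2e-05) and 0.83 (adjusted p = 1.9e-05) on the log2 scale. Mean signals of *Slc25a13* were 5.37 on the WT diaphragm-labelled arrays, 5.19 in WT and 5.08 in KO gastrocnemius, and whether these were above background is not known. The 1 gene not called was *Slc25a12*, at 11.75 on the WT diaphragm-labelled arrays and 11.98 in KO diaphragm (0.23, adjusted p = 0.087).

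Against KO gastrocnemius, 15 of the 35 were higher and 12 were lower in KO diaphragm, beside 17.7% and 11.2% of all genes. *Gpt2* differed there by -2.19, *Gpd2* by -2.55, *Slc16a7* by 2.85, *Slc25a13* by 1.90 and *Mdh1* by 0.86. The limit on low signals given above holds for *Slc16a7* and *Slc25a13* here too. *Slc25a12* was not called (0.19, adjusted p = 0.16). In the interaction, 11 were higher and 10 were lower, beside 8.76% and 6.07% of all genes. *Pfkfb3* was at -2.77, *Gpt2* at -2.77, *Slc16a7* at 2.67 and *Bpgm*, which makes 2,3-bisphosphoglycerate, at -1.59. Between KO and WT in gastrocnemius none of the 35 was called (limma, beside 0.592% of all genes). Of them, 9 had an unadjusted p under 0.05 (5 above and 4 below 0), beside 16.4% of all genes. The smallest p of each list belonged to *Fbp2* (-0.69, adjusted p = 0.12), *Emb*, which encodes a partner protein of monocarboxylate transporters (-0.61, adjusted p = 0.16), and *Mdh1* (0.26, adjusted p = 0.20). Between the WT labels none of the 35 was called either (limma, beside 0.461% of all genes). There, 9 had an unadjusted p under 0.05, beside 12.9% of all genes. The smallest p there belonged to *Tigar*, a fructose bisphosphatase (-0.40, adjusted p = 0.10), *Mpc1* (-0.47, adjusted p = 0.074) and *Mdh1* (0.29, adjusted p = 0.20).

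**Figure D4:**
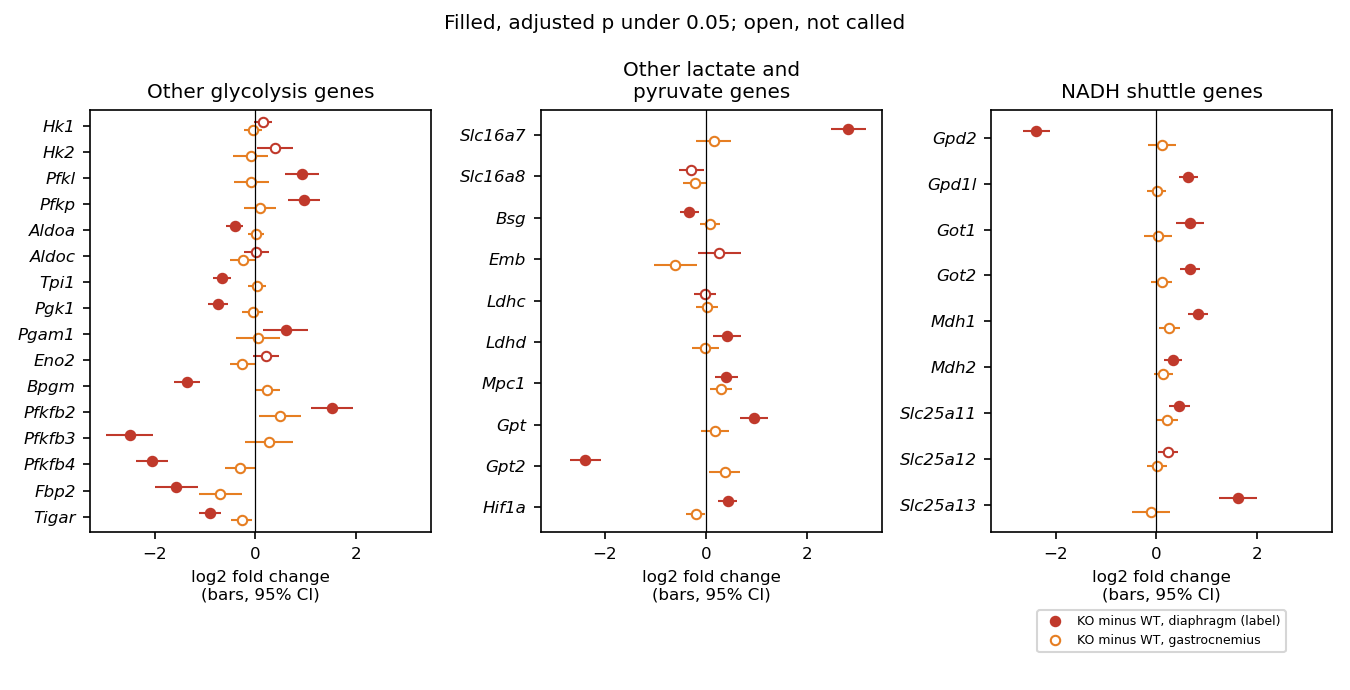
Log2 fold change (horizontal axes) of KO minus WT for the 35 other pathway genes, in 3 lists, under the diaphragm label (red) and in gastrocnemius (orange), with 95% confidence intervals as bars and filled points for an adjusted p under 0.05. Filled points appear under the diaphragm label only, 16 to the right and 11 to the left of 0. Under that label 27.6% of all genes were called.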

How the data were processed

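Total RNA of 12 muscle samples was hybridised to mouse Gene 1.0 ST arrays. The authors summarised the scanner files with RMA in Affymetrix Expression Console, and the deposited values are log2 signals, corrected for background and normalized between arrays (1.65 to 14.4). No pair of columns was identical. Of 35556 probe sets, 21789 had 1 gene symbol in the platform annotation, 1621 had several and 12146 were not listed, and only the first were used. A gene with several (999 genes) was represented by the one of highest mean signal.

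The 19938 genes were fitted with limma 3.58.1 under R 4.3.3 (functions lmFit and eBayes, 1 mean per group, 8 residual and 6.18 prior degrees of freedom, median residual SD 0.138) and adjusted by Benjamini-Hochberg. The fit was tested on simulated data. The members, marker lists and pathway lists were chosen with earlier results of these data known. From the pathway lists, some of the called genes, mostly those with large differences, were named by choice. In a comparison with no called gene, the 1 of smallest p in each list was named. For the 4 lactate genes, the 5 most similar genes were named.

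Replicate numbers are shared between groups, but no source ties a number to 1 animal, litter or date, so no block was fitted. Alternatives were other samples in the fit, a block, a trended and robust eBayes, quantile normalization, median centring, a filter on signal, the mean of all probe sets, the methods' t-test, the ratio of mean linear signals and leaving out each array.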

Additional observations from a re-analysis of the deposited data

Results flagged for a closer look

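For 8 of the 9 measured members, the KO minus WT difference under the diaphragm label differed from that in gastrocnemius by the test of the difference itself (limma, adjusted p under 0.05, beside 14.8% of all genes). It was lower under the diaphragm label for *Slc16a3* (-4.19, adjusted p = 1.0e-08), *Gpd1* (-1.53, adjusted p = 3.2e-05), *Ldha* (-1.10, adjusted p = 3.5e-05), *Eno3* (-0.69, adjusted p = 0.0010), *Pgam2* (-0.67, adjusted p = 0.0014) and *Pkm* (-0.50, adjusted p = 0.017). It was higher for *Ldhb* (1.63, adjusted p = 0.0013) and *Slc16a1* (1.17, adjusted p = 1.9e-04). These values are on the log2 scale, and each rests on the 3 WT diaphragm-labelled arrays, whose hindlimb position markers were near the level of gastrocnemius. Genotype and muscle cannot be told apart in them.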

How the results depend on the processing

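With the replicate number as a fixed block, the members called were 2 higher and 7 lower in both comparisons that hold KO diaphragm, 2 and 6 in the interaction, and 0 in gastrocnemius and between the WT labels, as without a block, and a random block gave the same counts. The count of other pathway genes called moved by at most 1 in either direction. Deviations of samples with the same number correlated at a median of -0.006 (-0.096 to 0.161), and the numbers were taken to pair nothing. Leaving out any 1 array left all member counts as they were. Without 1 array each, KO minus WT in gastrocnemius ran from -0.038 to 0.011 for *Eno3*, from -0.035 to 0.053 for *Ldha* and from -0.11 to 0.023 for *Slc16a1*. Between the WT labels it ran from -0.16 to 0.082 for *Gpd1*, from -0.025 to 0.49 for *Ldhb*, from -0.029 to 0.082 for *Pgam2*, from -0.12 to 0.0067 for *Pkm* and from -0.054 to 0.15 for *Slc16a3*. None of these was called. *Slc16a3* in gastrocnemius, not called, ran from -0.31 to -0.10. All genes called ran from 32 (without KO gastrocnemius replicate 1) to 147 in gastrocnemius (118 with all arrays), where 38 were called without WT gastrocnemius replicate 1, 40 and 35 without KO gastrocnemius replicates 2 and 3 and 58 without WT gastrocnemius replicate 3. Between the WT labels they ran from 39 (without WT diaphragm replicate 1) to 105 (92 with all arrays), with 47 without WT diaphragm replicate 3 and 46, 55 and 42 without WT gastrocnemius replicates 1, 2 and 3. Other pathway genes called between the WT labels ran from 0 to 1 in either direction.

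Median centring turned 3 values of gastrocnemius that were not called, *Eno3* (0.045), *Ldha* (0.055) and *Slc16a1* (0.015), and quantile normalization turned *Eno3* between the WT labels (0.010). Quantile normalization took *Pfkm* out of the calls against the WT diaphragm-labelled arrays (-0.26, adjusted p = 0.057) and KO gastrocnemius (-0.22, adjusted p = 0.11). The methods' t-test with Benjamini-Hochberg adjustment did so in the former (adjusted p = 0.074), and called 7 other pathway genes higher (16 by limma) and 1989 of all genes (5496). In gastrocnemius it called 0 genes, and 2708 unadjusted, among them 2 members higher (*Pgam2* and *Gpd1*) and 1 lower (*Pfkm*), and 3 other pathway genes higher and 4 lower. All genes called in gastrocnemius were 69 in a fit of these 2 groups, 77 without the WT diaphragm-labelled arrays and 217 after median centring. Between the WT labels they were 45 in a fit of 2 groups and 193 among genes at or above the median signal. Of other pathway genes there, 1 was called higher in the fit of 2 groups, and 1 lower with trend and robust, after quantile normalization or at or above the median signal. The causes were not tested. Median centring moved the median of all genes from -0.002 to -0.13 in the interaction and from 0.016 to -0.11 between the KO muscles. The split of higher and lower calls, 3258 and 2238 for KO minus WT under the diaphragm label, became 2812 and 2863 after quantile normalization and 2667 and 3836 after centring. Between the KO muscles it went from 3535 and 2232 to 2798 and 2828 and to 2389 and 4323, and in the interaction from 1747 and 1211 to 1507 and 1414 and to 1225 and 2291.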
